A study of Homo sapiens with 6 samples.

Results

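The transcripts of the human mitochondrial genome were taken as every gene in the deposited count tables whose symbol starts with MT-. This gave 37 of 58395 genes, made up of 13 messenger RNAs (mRNAs), 2 ribosomal RNAs (rRNAs) and 22 transfer RNAs (tRNAs). The cells were THP-1, a human monocytic leukaemia line, and their RNA was sequenced. In one group, cells received 1 µM monensin for 16 h (3 libraries), and in the other the cells had no exposure (3 libraries). The treatment label of the untreated cells names no vehicle. Monensin is an ionophore that exchanges sodium ions for protons across membranes. The samples set exposed cells against unexposed ones, here for the genes of one small genome.

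The mitochondrial genome is a small circular DNA inside mitochondria. Each of its strands is copied into a long precursor RNA by the polymerase POLRMT with the factors TFAM and TFB2M, and tRNAs lie between most of the other genes. Enzymes cut the precursor at the tRNAs, which releases the mRNAs and rRNAs. The transcript started at the heavy-strand promoter carries both rRNAs, most tRNAs and all mRNAs except MT-ND6, whereas MT-ND6 and the remaining tRNAs come from the transcript started at the light-strand promoter. The mRNAs encode core subunits of respiratory complexes I, III, IV and V, the rRNAs form the mitochondrial ribosome with imported proteins, and the tRNAs decode its messages.

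Gene counts summed to between 22975888 and 24774546 per monensin library and between 24159573 and 25710513 per untreated library. Of 10 markers of monocytic cells, 9 were above 1 CPM (1 count for each 1000000 scaled library counts) in every library. Their summed level was 1178 to 1266 CPM with monensin and 1598 to 1653 CPM without, and the part of this difference in the results was not tested. CD14, the lipopolysaccharide co-receptor, was low at 0.401 to 2.69 CPM. All 3 markers of erythroid cells and all 3 of epithelial cells were at 0 in every library. CD3E, of T cells, was also at 0, and the 3 T cell markers summed to 0.0400 to 0.195 CPM with monensin and 0 to 0.120 CPM without. Of all 16542 genes tested, 33.7% were lowered and 34.1% raised by edgeR's quasi-likelihood test at an adjusted p under 0.05, and 3.83% were lowered at least 2-fold. Non-overlapping groups were found for 71.1% of the tested genes. In sequencing of whole cultures, fewer cells with a transcript and less of it per cell cannot be told apart.

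Of the 37 mitochondrial genes, 25 passed the filter on low counts: all 13 mRNAs, both rRNAs and 10 tRNAs. Monensin lowered 24 of these 25 and raised MT-RNR1, and no group of monensin libraries overlapped its untreated group. Called reductions of at least 8-fold were found for 0.193% of all tested genes (32 genes), and 18 of those were mitochondrial genes, comprising 13 mRNAs and 5 tRNAs. The 5 tRNAs had few monensin counts and passed the filter only through the untreated group. Among called genes with a mean log2 CPM of at least 2, the 18 lowest log2 fold changes belonged to 14 mitochondrial genes and 4 nuclear copies of mitochondrial genes. The 37 genes together held 0.896%, 0.957% and 0.910% of gene counts in the monensin libraries, against 5.08%, 5.01% and 4.77% in the untreated libraries.

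All 13 mRNAs fell, with 2.56% to 10.8% of the untreated level left and a median log2 fold change of -4.42, against 0.02 over all tested genes. The mRNAs held 0.197% ± 0.0178 of gene counts in monensin libraries and 4.19% ± 0.152 in untreated libraries (SD, n = 3 each; exact two-sided permutation p = 0.1). This is the smallest p that 3 libraries against 3 can give. The ends of the annotated genes are shown here because they differ in how many letters of the stop codon the gene holds. A gene end need not be the end of the mRNA: MT-ATP8 and MT-ND4L each share an mRNA with the next gene. Of the 13 genes, 6 end in an incomplete stop codon, and the poly(A) tail added to their mRNAs is known to complete such codons. The last 24 bases of each mRNA gene in GENCODE 29 (GRCh38) are given 5′ to 3′ in the order of the genome, with the annotated stop letters in capitals.
MT-ND1: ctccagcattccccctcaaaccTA
MT-ND2: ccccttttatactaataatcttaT
MT-CO1: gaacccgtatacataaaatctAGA
MT-CO2: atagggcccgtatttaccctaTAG
MT-ATP8: cattcattgcccccacaatccTAG
MT-ATP6: ctctacctgcacgacaacacaTAA
MT-CO3: tctccatctattgatgagggtctT
MT-ND3: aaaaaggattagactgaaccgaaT
MT-ND4L: aacctaaacctactccaatgcTAA
MT-ND4: acatcattaccgggttttcctctT
MT-ND5: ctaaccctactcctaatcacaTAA
MT-ND6: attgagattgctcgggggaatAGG
MT-CYB: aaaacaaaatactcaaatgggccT
A single T ended 5 of the genes and TA ended MT-ND1, while 7 held 3 stop letters. In MT-ATP6, counted among these 7, the last stop letter at position 9207 is also the first base of MT-CO3. The log2 fold changes of the 6 genes annotated with an incomplete stop codon ran from -4.85 to -3.22 (median -4.42), and those of the other 7 from -5.29 to -4.12 (median -4.41). The ranges of both kinds of annotated gene end overlapped and their medians were close.

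**Figure D1:**
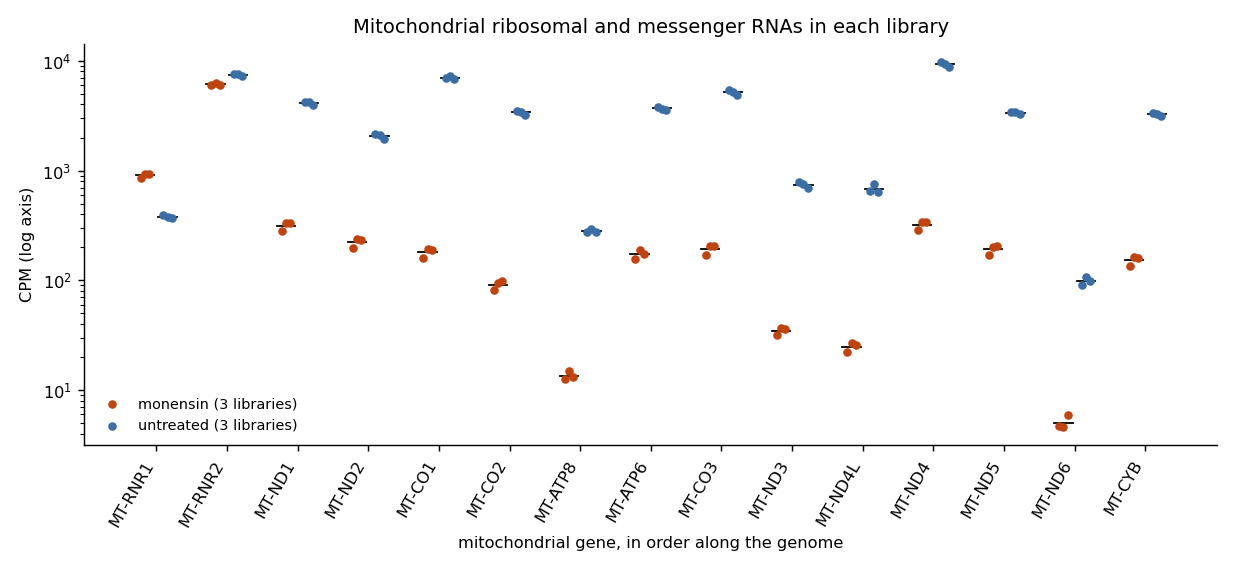
CPM (log axis) of the 2 rRNAs and 13 mRNAs in each monensin and untreated library, in the order of the genome, with bars at group means. Every mRNA lies lower in all monensin libraries, MT-RNR1 lies higher, and MT-RNR2 differs little (6122 against 7462 CPM).

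Complex IV mRNAs encode the catalytic core of cytochrome oxidase, and MT-CO1 and MT-CO2 had the lowest log2 fold changes of the 13 mRNAs. MT-CO1, the subunit with the oxygen-reducing centre, had 4057, 4838 and 4389 counts in monensin libraries, against 175235, 168871 and 168362 counts in untreated libraries. Its log2 fold change was -5.29 (SE 0.07, edgeR adjusted p = 3.69e-17). MT-CO2, which takes electrons from cytochrome c, had 2077, 2386 and 2293 counts with monensin and 87164, 80372 and 79636 counts without. All monensin values of both genes lay below the lowest untreated value. For MT-CO2 the log2 fold change was -5.21 (SE 0.07). MT-CO3, a structural subunit, changed by -4.75 (SE 0.07), with 4327, 5134 and 4752 counts in monensin libraries and 134347, 122427 and 121096 in untreated libraries.

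The 7 complex I mRNAs, which encode membrane subunits of NADH dehydrogenase, fell over a wider range, from -4.85 to -3.22. MT-ND4 had 7426, 8499 and 7852 counts in monensin libraries, against 241975, 219250 and 216605 in untreated libraries. MT-ND1 had 7224, 8241 and 7722 counts with monensin, against 105821, 97837 and 97010 without. The groups were apart for both, with log2 fold changes of -4.85 (SE 0.06) for MT-ND4 and -3.71 (SE 0.06) for MT-ND1. MT-ND2 had the highest log2 fold change of all 13 mRNAs, at -3.22 (SE 0.07, edgeR adjusted p = 3.68e-15). Its counts were 5025, 5889 and 5466 in monensin libraries and 53986, 48689 and 47625 in untreated libraries. The remaining heavy-strand members of the complex lay between MT-ND1 and MT-ND4 in log2 fold change. MT-ND5 had 4408, 5060 and 4807 counts with monensin and 84884, 80394 and 80646 without (-4.12, SE 0.06). MT-ND3 had 813, 914 and 840 counts with monensin and 19451, 17672 and 17235 without (-4.42, SE 0.06). MT-ND4L had 573, 670 and 598 counts with monensin and 16164, 17591 and 15730 without (-4.77, SE 0.08).

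Complexes III and V each have few mitochondrial subunits. MT-CYB, cytochrome b and the only mitochondrial subunit of complex III, had 3447, 4041 and 3760 counts in monensin libraries, against 83853, 76258 and 77395 in untreated libraries. Its log2 fold change was -4.42 (SE 0.07). MT-ATP6, the proton channel subunit of ATP synthase, had 4038, 4685 and 4092 counts with monensin, against 95474, 84489 and 88621 without, a log2 fold change of -4.41 (SE 0.06). MT-ATP8, another membrane subunit of ATP synthase, had 321, 377 and 306 counts with monensin and 6909, 6914 and 6784 without (log2 fold change -4.38, SE 0.06). The groups of all 3 genes were apart, and their changes lay within 1 SE of each other.

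MT-ATP8 and MT-ATP6 lie on a shared mRNA with overlapping reading frames, as do MT-ND4L and MT-ND4. The overlaps are shown because a read across them cannot be given to one gene by its position. Capitals mark the bases shared with the next gene, on the plus strand of GRCh38.
MT-ATP8 end (chrM:8513-8572): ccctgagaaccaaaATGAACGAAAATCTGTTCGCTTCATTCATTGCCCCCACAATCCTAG
MT-ND4L end (chrM:10727-10766): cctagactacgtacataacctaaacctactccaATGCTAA
The first pair shares 46 bases and the second shares 7. Per 100 MT-ATP6 counts there were 7.95, 8.05 and 7.48 MT-ATP8 counts in monensin libraries, against 7.24, 8.18 and 7.66 in untreated libraries. Per 100 MT-ND4 counts there were 7.72, 7.88 and 7.62 MT-ND4L counts with monensin, against 6.68, 8.02 and 7.26 without. The groups overlapped in both ratios (log2 differences 0.03 and 0.08, exact two-sided permutation p = 0.7 and p = 0.4), so within each shared mRNA no difference in change was detectable with 3 libraries a group.

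**Figure D2:**
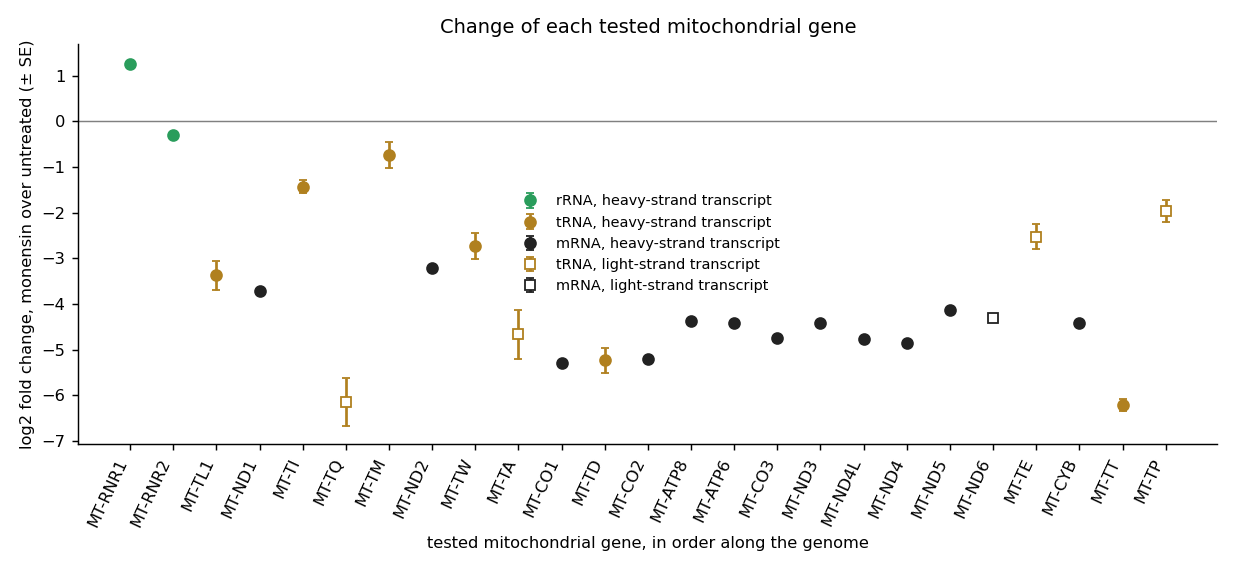
Log2 fold change (monensin over untreated, ± SE from edgeR) of the 25 tested mitochondrial genes in the order of the genome, with filled circles for the heavy-strand transcript and open squares for the light-strand transcript. Values go from 1.25 at MT-RNR1 to -6.21 at MT-TT, and the mRNAs lie between -5.29 and -3.22.

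The balance between the complexes differed between the groups. Summed over their mRNAs from the heavy-strand transcript, complex I had 2.43, 2.37 and 2.39 counts per complex IV count in monensin libraries, against 1.32, 1.30 and 1.29 in untreated libraries. On the log2 scale this ratio was 0.88 higher with monensin (exact two-sided permutation p = 0.1, adjusted over 15 within-library values p = 0.136). Complex III had 0.328 ± 0.00130 counts per complex IV count with monensin and 0.209 ± 0.00320 without (SD, n = 3 each). Complex V had 0.404 ± 0.0168 counts per complex IV count with monensin and 0.254 ± 0.00713 without. Complex I also had a higher ratio to complex III, by 0.23, and to complex V, by 0.22, on the log2 scale. The groups did not overlap in any of these 5 ratios, each with an exact two-sided permutation p = 0.1. The ratios of complex I to complexes III and V rested on MT-ND1 and MT-ND2 and turned round without them. In that setting, chosen after the data were seen, complex I had 3.78 ± 0.0502 counts per complex III count with monensin and 4.33 ± 0.0627 without, and 3.08 ± 0.113 counts per complex V count with monensin and 3.56 ± 0.102 without (SD, n = 3 each). Its ratio to complex IV was still higher, at 1.24 ± 0.0203 with monensin and 0.903 ± 0.00964 without, a log2 difference of 0.46. Complex V relative to complex III differed by 0.01 on the log2 scale, and there the groups overlapped (exact two-sided permutation p = 0.7).

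In the make-up of the mRNA pool, the shares of MT-ND1 and MT-ND2 rose most with monensin. MT-ND1 supplied 16.4% ± 0.141 of the counts of the 13 mRNAs in monensin libraries and 9.54% ± 0.0232 in untreated libraries, and MT-ND2 supplied 11.6% ± 0.0873 and 4.77% ± 0.101 (SD, n = 3 each). These are the mRNAs nearest the rRNAs on the heavy-strand transcript. MT-CO1, which follows them, supplied 9.37% ± 0.135 with monensin and 16.3% ± 0.398 without, and MT-ND4 supplied 16.8% ± 0.130 and 21.5% ± 0.306. MT-ND5, which lies late on the transcript, supplied 10.1% ± 0.138 with monensin and 7.81% ± 0.130 without. In all, the shares of 6 mRNAs were above the untreated range, those of 5 were below it, and MT-ATP8 and MT-ND6 overlapped. Besides MT-ND1, MT-ND2 and MT-ND5, those above it were MT-ATP6, MT-ND3 and MT-CYB. MT-ND1 and MT-ND2 together, a grouping made after the values were seen, had 38.9, 38.6 and 39.1 counts per 100 counts of the other 10 heavy-strand mRNAs in monensin libraries, against 16.9, 16.8 and 16.6 in untreated libraries. The change did not follow position in one direction: over the 12 heavy-strand mRNAs, Pearson's r between log2 fold change and start position was -0.29 and Spearman's rho was -0.17. Without MT-ND1 and MT-ND2, r was 0.63 and rho was 0.42 over 10 mRNAs. These correlations describe genes of the same 6 libraries, which are not independent replicates.

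**Figure D3:**
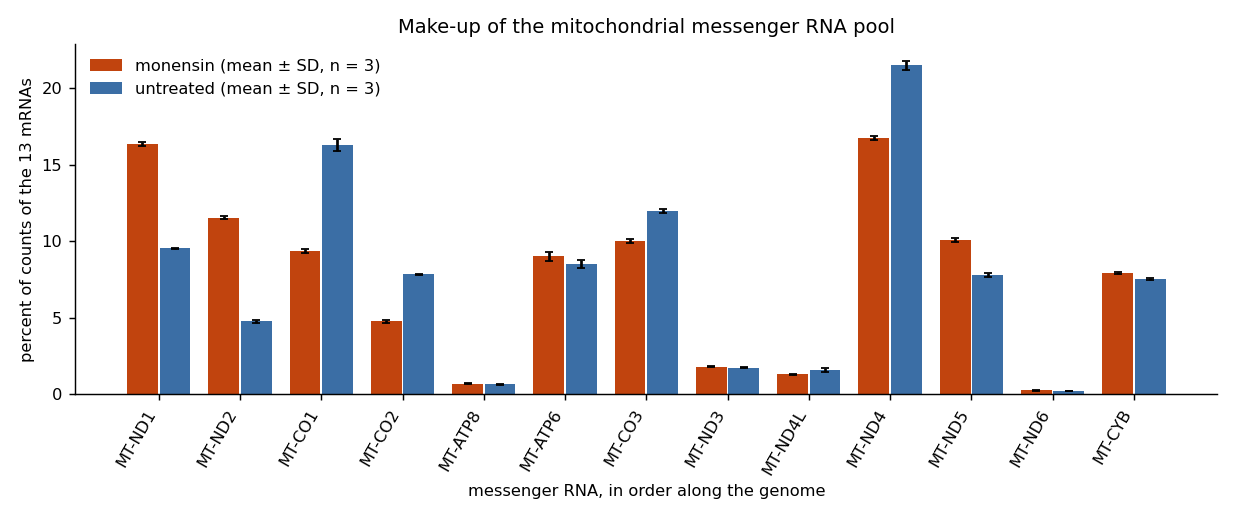
Percent of the summed counts of the 13 mitochondrial mRNAs that each mRNA supplied, with monensin bars left of untreated bars (mean ± SD, n = 3 libraries each). MT-ND1 and MT-ND2 supplied larger shares with monensin (16.4% and 11.6%), and MT-CO1, MT-CO2 and MT-ND4 smaller ones.

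Counts between genes were compared as CPM per 1000 positions at which a 75-nt read touches the gene and no other gene of its strand. On this scale of level the highest mRNAs in monensin libraries were MT-ND1 at 355 ± 31.9, MT-ATP6 at 309 ± 27.0, MT-CO3 at 271 ± 29.2 and MT-ND4 at 248 ± 21.8 (SD, n = 3). In untreated libraries they were MT-CO3 at 7304 ± 355, MT-ND4 at 7162 ± 370, MT-ATP6 at 6569 ± 233 and MT-CO2 at 5335 ± 229. In both groups the ranges of mean ± SD of MT-CO3 and MT-ND4 overlapped. These SDs are between libraries and do not measure differences between genes of the same library. Both rRNAs lay above all mRNAs with monensin, at 4123 ± 101 for MT-RNR2 and 1030 ± 48.4 for MT-RNR1. In untreated libraries MT-RNR2, at 5025 ± 93.3, ranked 5 of the 15 genes, and MT-RNR1, at 431 ± 17.2, ranked 14. MT-CO1 ranked 13 with monensin, at 111 ± 11.8, and 7 in untreated libraries, at 4353 ± 133. With monensin its neighbours in that order were MT-ND4L at 115 ± 10.7 and MT-ND5 at 107 ± 10.4. Whether these genes differed from MT-CO1 within libraries was not tested. Between the highest and lowest of the 12 heavy-strand mRNAs, levels spanned 3.33-fold with monensin and 3.93-fold without.

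MT-ND6, a complex I subunit and the only mRNA of the light-strand transcript, had the lowest level of the 13 mRNAs in both groups. It had 121, 115 and 137 counts in monensin libraries, against 2281, 2482 and 2450 in untreated libraries. Its log2 fold change of -4.29 (SE 0.09, edgeR adjusted p = 3.11e-15) lay inside the range of the heavy-strand mRNAs. For each MT-ND6 count there were 361, 441 and 342 counts of the other 12 mRNAs with monensin, against 485, 411 and 415 without. The groups overlapped (exact two-sided permutation p = 0.3, adjusted p = 0.375), and a difference in change between the strands was not detectable with 3 libraries a group. The monensin mean of the log2 ratio was 0.20 higher. Reads were counted by strand: of 470 genes that lie wholly inside exons of the opposite strand, 174 had at least 10 counts over all libraries, against 5 of 485 genes inside exons of other genes of their own strand, where position cannot assign a read to one gene.

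The rRNAs did not move with the mRNAs. MT-RNR1, the 12S rRNA of the small ribosomal subunit, had 22017, 23100 and 21877 counts in monensin libraries, against 9899, 8718 and 9105 in untreated libraries. Every monensin value was over 2-fold above the highest untreated one, and the log2 fold change was 1.25 (SE 0.04, edgeR adjusted p = 2.22e-12). Called increases of at least 2-fold were found for 9.41% of all tested genes. MT-RNR2, the 16S rRNA of the large subunit, had 155868, 157295 and 140164 counts with monensin, against 187569, 176336 and 180529 without. It fell by 0.29 on the log2 scale (SE 0.03, edgeR adjusted p = 2.58e-06), and 82.0% of its untreated level was left.

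For each MT-RNR1 count there were 7.08, 6.81 and 6.41 MT-RNR2 counts in monensin libraries, against 18.9, 20.2 and 19.8 in untreated libraries. MT-RNR1 made up 12.9% ± 0.567 of rRNA counts with monensin and 4.84% ± 0.155 without (SD, n = 3 each; exact two-sided permutation p = 0.1). The ratio of summed rRNA to summed mRNA counts was 4.06, 3.55 and 3.45 with monensin, against 0.178, 0.181 and 0.186 without, a difference of 4.34 on the log2 scale. MT-RNR1 against MT-ND1, a gene further along the same precursor, differed by 4.97 on the log2 scale. Every monensin library thus had more rRNA than mRNA counts, and every untreated library fewer, without correction for length. The sources used here do not say whether poly(A) selection or rRNA removal was used, and rRNA counts depend on that step. Levels of mRNAs relative to each other, MT-ND6 included, can depend on it too.

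**Figure D4:**
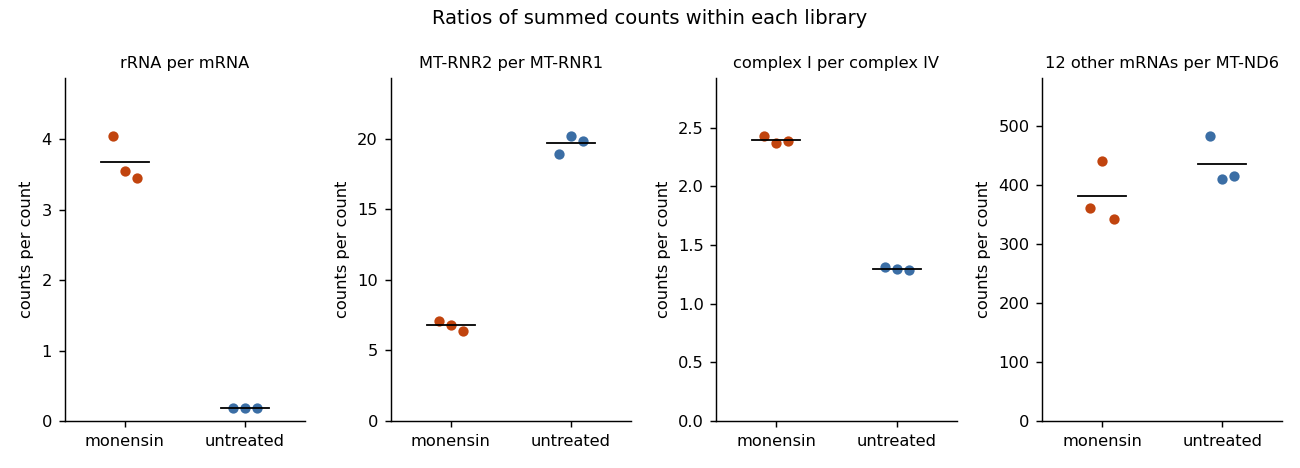
Ratios of summed counts within each library, with points for the 3 monensin and 3 untreated libraries, bars at group means and axes from 0. The groups are apart in the first 3 panels and overlap for the 12 heavy-strand mRNAs per MT-ND6 count.

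The tRNA genes are shorter than a 75-nt read or as long as one, so a full-length read over one of them can also reach a neighbour. For 6 of the 22 (MT-TV, MT-TG, MT-TR, MT-TH, MT-TS2 and MT-TL2) the annotation leaves no position at which a 75-nt read touches the tRNA and no other gene of its strand. These 6 genes had 3 counts in all over the 6 libraries. MT-TN and MT-TK have such positions (31 and 22) but were also at 0 in all libraries. A full-length read given to a tRNA gene of fewer bases also covers bases outside the gene, so counts of such reads are no measure of the mature tRNA. Read lengths after any trimming were not examined. Summed over the 22 genes, counts came to 374 in monensin libraries and 4304 in untreated libraries.

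All 10 tested tRNA genes were lowered, with a median log2 fold change of -3.05 and a range from -6.21 to -0.74. Among them MT-TT, MT-TQ, MT-TA, MT-TD, MT-TL1, MT-TW and MT-TE passed the filter on low counts only through the untreated group. A raised call was therefore not open to these genes, and their shared direction is no separate result. The genes printed here 5′ to 3′ as GENCODE 29 gives them are MT-TT and MT-TM, at the ends of that range, with MT-TQ and MT-TD, whose monensin counts were at most 3 in a library, and MT-TF, the first gene of the heavy-strand transcript.
MT-TT (chrM:15888-15953, plus strand): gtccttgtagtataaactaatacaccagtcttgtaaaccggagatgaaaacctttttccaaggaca
MT-TQ (chrM:4329-4400, minus strand): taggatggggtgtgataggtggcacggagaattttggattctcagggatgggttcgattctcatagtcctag
MT-TD (chrM:7518-7585, plus strand): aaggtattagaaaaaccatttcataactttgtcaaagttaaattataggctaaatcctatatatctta
MT-TM (chrM:4402-4469, plus strand): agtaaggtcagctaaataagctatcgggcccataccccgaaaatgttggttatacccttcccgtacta
MT-TF (chrM:577-647, plus strand): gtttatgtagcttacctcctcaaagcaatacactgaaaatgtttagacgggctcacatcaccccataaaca
MT-TT, the threonine tRNA and the last gene of the heavy-strand transcript, had 12, 8 and 16 counts in monensin libraries, against 941, 857 and 855 in untreated libraries. It held 9.63% of all tRNA counts in monensin libraries and 61.6% in untreated libraries. Its log2 fold change was -6.21 (SE 0.13, edgeR adjusted p = 4.28e-15). Per 100 counts of MT-CYB, the gene just before it, MT-TT had 0.348, 0.198 and 0.426 counts with monensin, against 1.12, 1.12 and 1.10 without (exact two-sided permutation p = 0.1). MT-TT thus had a lower ratio to MT-CYB in every monensin library.

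Other tRNA genes of the heavy-strand transcript spread widely. MT-TD, the aspartate tRNA between MT-CO1 and MT-CO2, had 2, 3 and 2 counts with monensin and 89, 87 and 97 without. Its log2 fold change of -5.23 (SE 0.27) lay between those of MT-CO1 and MT-CO2. MT-TL1, a leucine tRNA between MT-RNR2 and MT-ND1, had 7, 5 and 2 counts with monensin and 54, 50 and 42 without. It changed by -3.37 (SE 0.31), nearer to MT-ND1 at -3.71 than to MT-RNR2 at -0.29. Only 3 positions let a 75-nt read touch MT-TL1 and no other gene of its strand, so this value rests on few positions or on shorter reads. MT-TW, the tryptophan tRNA after MT-ND2, had 6, 7 and 10 counts with monensin and 40, 49 and 63 without (-2.72, SE 0.29). MT-TI, the isoleucine tRNA after MT-ND1, had 54, 46 and 48 counts with monensin and 122, 133 and 137 without, a log2 fold change of -1.42 (SE 0.14). MT-TM, the methionine tRNA before MT-ND2, had 12, 10 and 18 counts with monensin and 20, 21 and 25 without. Its log2 fold change of -0.74 (SE 0.29, edgeR adjusted p = 0.0352) was not called under total counts (edgeR adjusted p = 0.0585), with DESeq2 (adjusted p = 0.188), or without untreated replicate 2 (adjusted p = 0.0674), untreated replicate 3 (adjusted p = 0.110), monensin replicate 1 (adjusted p = 0.118) or monensin replicate 2 (adjusted p = 0.143). Over all its alternatives the adjusted p ran from 0.00979 to 0.188.

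Of the 8 tRNA genes on the light-strand transcript, 4 were tested and all fell, though MT-TQ, MT-TA and MT-TE passed the filter only through the untreated group. MT-TQ, the glutamine tRNA, had 1, 0 and 1 counts with monensin, against 48, 74 and 42 without. The ratio of its summed counts, scaled to depth, was 0.0120 with a 95% counting interval from 0.00144 to 0.0441. MT-TA, the alanine tRNA, had 1, 0 and 1 counts with monensin and 21, 21 and 17 without, a ratio of 0.0334 with a counting interval from 0.00396 to 0.126. MT-TE, the glutamate tRNA beside MT-ND6, had 8, 8 and 6 counts with monensin and 34, 45 and 47 without (log2 fold change -2.52, SE 0.28). MT-TP, the proline tRNA nearest the light-strand promoter, had 17, 14 and 22 counts with monensin and 55, 81 and 69 without (log2 fold change -1.97, SE 0.24). The median over these 4 was -3.59, and that over the 6 tested tRNA genes of the heavy-strand transcript was -3.05. Of those 6, MT-TT, MT-TD, MT-TL1 and MT-TW also passed the filter only through the untreated group. Both medians thus depend on the filter and are no comparison of the strands.

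The other 12 tRNA genes did not pass the filter, and none had more than 13 counts in a library. Of them, MT-TN, MT-TK, MT-TG, MT-TR, MT-TH and MT-TL2 were at 0 throughout. MT-TV, the valine tRNA between the rRNAs, had 0, 2 and 0 counts with monensin and none without, and MT-TS2, a serine tRNA, had 1, 0 and 0 with monensin and none without. MT-TF, the phenylalanine tRNA at the start of the heavy-strand transcript, had 6, 2 and 7 counts with monensin and 3, 3 and 5 without, so its groups overlapped. MT-TC, the cysteine tRNA, had no count with monensin and 4, 5 and 1 counts without, at least 3.38-fold lower against a floor of 3 counts over the group. MT-TY, the tyrosine tRNA, had 0, 0 and 2 counts with monensin and 5, 8 and 2 without, and MT-TS1, a serine tRNA, had 1, 4 and 2 with monensin and 10, 13 and 9 without. Counting intervals and floors cover counting error only.

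The authors' deposited table of regulated genes lists 26 of the 37 mitochondrial genes, made up of all 13 mRNAs, 12 tRNAs and MT-RNR1. The 12 tRNAs in the authors' deposited table include MT-TC, MT-TY and MT-TS1, which did not pass the filter used here, and leave out MT-TM. In the authors' deposited table MT-RNR1 has a log2 fold change of 1.23, MT-CO1 of -5.31 and MT-TQ of -6.41. MT-RNR2 is not in the authors' deposited table, whose smallest absolute log2 fold change is 1.00.

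Nuclear chromosomes carry old copies of parts of the mitochondrial genome, and reads can be shared with them. Of 405 genes named as such copies, 12 were tested and 11 were lowered (91.7%), against 33.7% of all tested genes. Copies with few monensin counts, such as MTCO1P12, passed the filter on low counts only through the untreated group, so a raised call was not open to them. MTND2P28, a pseudogene on chromosome 1 at 98.4% identity to MT-ND2, had 1582, 1783 and 1584 counts in monensin libraries, against 17696, 16509 and 15859 in untreated libraries. That was 31.5%, 30.3% and 29.0% of the MT-ND2 counts with monensin, and 32.8%, 33.9% and 33.3% without. MTATP6P1, at 98.5% identity to MT-ATP6, had 18.5%, 18.1% and 18.2% of the MT-ATP6 counts with monensin and 17.9%, 17.6% and 17.5% without. The ratio of MTND2P28 to MT-ND2 was thus lower in every monensin library and that of MTATP6P1 to MT-ATP6 higher. The log2 fold changes were -3.36 (SE 0.06) for MTND2P28 and -4.36 (SE 0.06) for MTATP6P1. The window with the most differences between MT-ND2 and MTND2P28 is shown to let a reader see how few bases set the assignment of a read. It starts at base 415 of both genes, and the 4 differing bases are in capitals.
MT-ND2 (chrM:4884-4958, plus strand): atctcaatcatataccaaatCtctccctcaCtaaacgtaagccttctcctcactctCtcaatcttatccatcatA
MTND2P28 (chr1:630054-630128, plus strand): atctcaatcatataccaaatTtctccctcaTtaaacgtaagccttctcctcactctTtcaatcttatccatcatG

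The other 3 copies described had fewer counts. MTCO1P12 had 11, 10 and 8 counts with monensin and 460, 480 and 439 without (log2 fold change -5.58, SE 0.14). MTND4P12 had 31, 15 and 15 counts with monensin and 524, 452 and 460 without. MTRNR2L12, a copy of part of MT-RNR2, had 38, 41 and 40 counts with monensin and 48, 36 and 42 without, and it was not called (edgeR adjusted p = 0.645). Windows of 75 bases that also occur in an annotated nuclear transcript made up 36.6% of MT-CO1, 34.4% of MT-ND2, 28.0% of MT-ATP6 and 16.3% of MT-ND1. The share was 14.6% of MT-CO3, 10.5% of MT-CO2, 7.1% of MT-ND6, 3.2% of MT-RNR2 and 0.17% of MT-ND5, but 0% of MT-ND4, MT-CYB and MT-RNR1. Nuclear sequence outside annotated transcripts was not searched. Levels of the genes with such windows named here, and their order, are therefore uncertain. MT-ND4 and MT-CYB, with no such window, had log2 fold changes of -4.85 and -4.42. Alignments that were not unique made up 7.64% to 7.81% of tallied alignments in monensin libraries and 7.39% to 7.80% in untreated libraries.

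**Figure D5:**
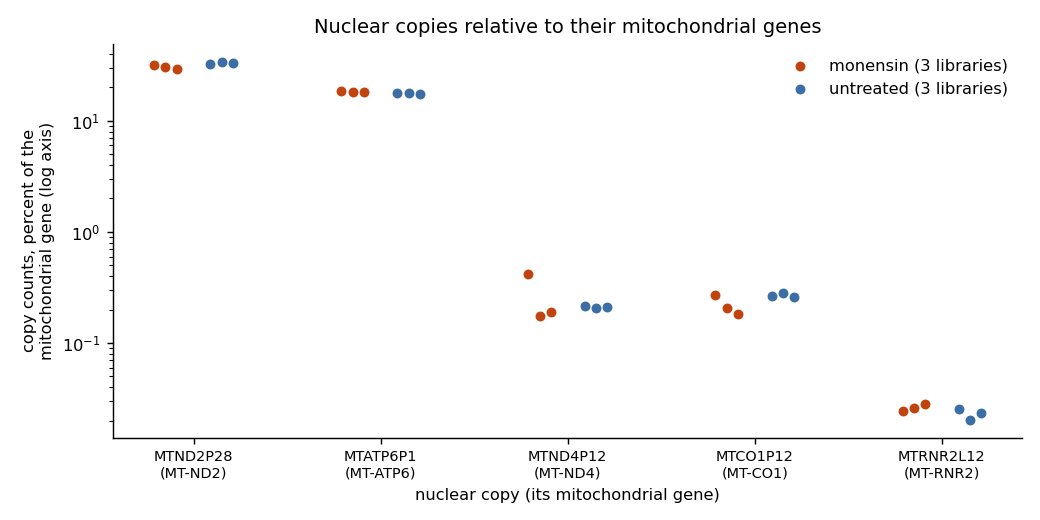
Counts of the 5 nuclear copies with the highest mean count as a percent of the counts of their mitochondrial gene (log axis), with monensin points left of untreated points, 1 point a library. MTND2P28 stays near 30% of MT-ND2 in both groups (29.0% to 31.5% with monensin, 32.8% to 33.9% without).

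Of 40 nuclear genes whose products copy, transcribe, cut, modify, stabilise or degrade mitochondrial nucleic acids, all were tested, 32 were lowered and 2 were raised. This compares with 33.7% lowered and 34.1% raised over all tested genes, and their median log2 fold change was -0.41. The reductions were far smaller than those of the mitochondrial mRNAs, with a lowest log2 fold change of -0.92. TFAM, which packages mitochondrial DNA and starts transcription, had that value, at 54.7 ± 3.03 CPM with monensin and 104 ± 4.37 CPM without (SD, n = 3 each; edgeR adjusted p = 5.3e-10). POLRMT, the RNA polymerase, changed by -0.26 (SE 0.05, edgeR adjusted p = 0.000191), and TEFM, its elongation factor, by -0.22 (SE 0.08, edgeR adjusted p = 0.0211).

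Besides TFAM, the lowest log2 fold changes of the list were those of PNPT1, ELAC2, TWNK and MRM3. PNPT1, the RNA-degrading polynucleotide phosphorylase, changed by -0.85 (SE 0.05), ELAC2, which cuts the 3′ ends of tRNAs, by -0.82 (SE 0.05), and TWNK, the DNA helicase, by -0.79 (SE 0.06). MRM3, which methylates the 16S rRNA, changed by -0.74 (SE 0.08). LRPPRC and SLIRP, partners that stabilise mitochondrial mRNAs, changed by -0.48 (SE 0.04) and -0.55 (SE 0.05). LRPPRC averaged 397 ± 11.9 CPM with monensin and 555 ± 25.3 CPM without. FASTK, whose mitochondrial form is needed for MT-ND6 mRNA, rose by 0.32 on the log2 scale (SE 0.06, edgeR adjusted p = 0.0004). TOP1MT, the mitochondrial topoisomerase I, rose by 0.13 (SE 0.04, edgeR adjusted p = 0.0155). The smallest called reductions were those of MTERF1, a DNA-binding termination factor (-0.20, SE 0.07), MTERF4, a partner of rRNA methylation (-0.18, SE 0.06), and FASTKD1, an RNA-binding protein (-0.18, SE 0.05). Under total counts, 28 of the list were lowered and 4 raised, and TEFM (edgeR adjusted p = 0.141), MTERF1 (0.200), MTERF4 (0.124) and FASTKD1 (0.0865) were not called. TEFM and MTERF1 were also not called without untreated replicate 1 (edgeR adjusted p = 0.104 and 0.0924) or monensin replicate 3 (0.0520 and 0.0811), and with DESeq2 their adjusted p was 0.0532 and 0.0656. Over its alternatives the adjusted p of TEFM ran from 0.00407 to 0.141. TOP1MT was not called without untreated replicate 3 (edgeR adjusted p = 0.0890), with no filter (edgeR adjusted p = 0.0597) or with DESeq2 (adjusted p = 0.0756), and its adjusted p ran from 0.000333 to 0.0890 over its alternatives.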

How the data were processed

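RNA was sequenced from 6 THP-1 samples, as single 75-nt reads from a directional library kit per the labels' protocols. The authors deposited raw counts of reads per Ensembl gene, without normalization. The submitters' processing notes name HTSeq 0.11.1, HISAT2 2.1.0, DESeq2 1.22.2, bcl2fastq and Trimmomatic 038, and the build hg38 (GRCh38). Neither the annotation release nor the strand setting is stated there. The authors also deposited log2 fold changes of 2410 regulated genes. The 5 tally lines per file, 21.2% to 22.0% of tallied alignments in monensin libraries and 19.1% to 19.8% in untreated libraries, entered neither library sizes nor tests.

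Groups came from the treatment labels. Counts of all genes were tested with edgeR 4.0.16 (R 4.3.3; quasi-likelihood, TMM, its filter by group, treatment only), with Benjamini-Hochberg adjustment over 16542 genes and a call at an adjusted p under 0.05. CPM use TMM-scaled library sizes. Values within a library were compared by exact two-sided permutation (SciPy 1.17.1), and the adjustment covered 15 such values. Other values with a permutation p, such as the MT-RNR1 share of rRNA counts, were left out of the adjustment. Positions, strands and sequences came from GENCODE 29, which held 58275 of the 58395 gene identifiers. The 5 nuclear copies with the highest mean count were aligned with Biopython 1.88. Scripts were tested on simulated data.

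The members and lists were chosen with earlier results of these data known. Text names all mRNAs and rRNAs, all tested tRNAs, 5 nuclear copies, and the 5 highest and 5 lowest called genes of the nuclear list with a mean log2 CPM of at least 2 besides POLRMT, TFAM, TEFM, LRPPRC and SLIRP. The 12 untested tRNAs were named, and the ratios of MT-ND1 and MT-ND2, MT-RNR1 to MT-ND1, MT-ATP8 to MT-ATP6, MT-ND4L to MT-ND4 and MT-TT to MT-CYB were added, after values were seen. No label names separate cultures for the replicates, so the p-values rest on a spread that may be technical. Between replicates, chi-square per degree of freedom was 1.84 to 4.68, and no library was counted as a repeat. Alternatives were RLE factors, total counts, library sizes without mitochondrial genes, no filter, a stricter filter, a replicate block, DESeq2 1.42.0, an adjusted p under 0.01 and each library left out.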

Additional observations from a re-analysis of the deposited data

How the results depend on the processing

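Over 14 alternatives a gene, the 25 tested mitochondrial genes kept their direction throughout, and 24 of them kept their call in every alternative that gave a value; MT-TM was not called in 7. MT-RNR2 ranged from -0.31 to -0.20 on the log2 scale and MT-RNR1 from 1.22 to 1.34. Between 8 and 13 tRNA genes were called lowered, with the fewest under the stricter filter and the most with no filter, which tested more of them. The number of raised genes in the nuclear list was 4 under total counts, 1 with no filter, 1 with DESeq2, 1 at an adjusted p under 0.01 and 1 to 3 with a library left out; the cause was not tested. Total counts moved the median log2 fold change of all genes by 0.09. They called 4605 genes lowered and 6582 raised, against 5570 and 5638 under TMM. TEFM, MTERF1, MTERF4 and FASTKD1 lost their calls under total counts. The rRNA to mRNA difference was 4.94 on the log2 scale from mean log2 counts, against 4.34 from sums. Without MT-ND1 and MT-ND2, complex I relative to complexes III and V was -0.20 and -0.21 on the log2 scale.

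Same-numbered libraries did not deviate together (correlations -0.12, 0.14 and 0.04), so replicate numbers were not taken as pairs. A replicate block gave 5435 lowered and 5515 raised genes, left the calls of all 13 mRNAs, both rRNAs and 10 tRNAs. For the 5 within-library values run with the block, the differences are the same by construction (complex I relative to complex IV 0.88), and the exact p was 0.25, the smallest 3 pairs can give, or 0.5 for MT-ND6. Low counts limit the tRNA genes, with an SE of up to 0.54 (MT-TA).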
